A study of Homo sapiens with 8 samples.

Results

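The genes described here were 50 genes of G2/M phase and mitosis, the stage in which a cell that has copied its DNA divides. They were a listed set of regulators, kinases, kinetochore and spindle proteins and chromosome proteins, with the KIF kinesins left out. CENPE, a kinetochore motor of the kinesin family, is a member. The list was drawn up by function, with earlier results of these data known. All 50 were among the 18201 genes with enough counts to be tested, out of 58217 genes with a matched transcript. Oligodendrocyte progenitor cells (OPCs) were made from the human embryonic stem cell line H9, which is established and widely used, and were kept for 2 days in OPC medium without overexpression of SOX10. The groups differed in the coating of the plate: Matrigel, a basement membrane extract used as the control (2 libraries, replicates 2 and 3), full-length vitronectin (VN, 3 libraries), or VNP2, a peptide designed from vitronectin (3 libraries). Polyadenylated RNA was sequenced to ask how each substrate changed expression. Nothing in the labels says whether the replicates were separate differentiations, so the spread between them may be partly technical, and all come from 1 cell line.

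Entry into mitosis is driven by CDK1 bound to cyclin B, which CDC25 phosphatases switch on and which Polo-like and Aurora kinases reinforce. Chromosomes are condensed, attached to the spindle through kinetochores and watched by the spindle assembly checkpoint until the anaphase promoting complex releases them, after which cytokinesis separates the daughter cells. Most of these transcripts are made late in the cycle and are low in cells that have stopped dividing, so they are widely used as a readout of cycling cells. OPCs divide, and in the course of their maturation into oligodendrocytes they leave the cycle. In bulk RNA, fewer dividing cells and less mitotic RNA per dividing cell cannot be told apart.

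Many late cell cycle promoters carry a CHR (cell cycle genes homology region) close to the start of transcription and boxes bound by the factor NF-Y upstream of it. The promoters of 42 of the 50 genes were matched in RefSeq (GRCh38.p14), and the 250 bases before each start were searched on both strands for the CHR letters (TTTGAA) and, apart from them, for the letters of the NF-Y box (CCAAT). No overlap with another match was barred. The CHR letters were found for 24 of the 42 genes (57.1%), against 16.1% of all 27305 genes with a promoter in the same window. The NF-Y letters were found for 33 of the 42 (78.6%) against 37.0%, and both were found for 20 (47.6%) against 5.79%. Among the 12719 tested genes with a promoter the shares were 12.5% for the CHR letters, 41.1% for the NF-Y letters and 4.83% for both. For comparison, 4 of 39 S phase genes held the CHR letters (10.3%) and 28 of 39 the NF-Y letters (71.8%). A match is a run of letters and not a shown binding site. The sequences below are the 200 bases before the start of 6 members, picked for the different results of their RNA described further on. MAD2L1 among them was called in no pair. Either motif is in capitals on whichever strand it was read, and where the motifs touch, the capitals run on.

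The windows lay at chr16:23678689-23678888 (plus strand), chr15:59104946-59105145 (plus strand), chr5:163460432-163460631 (plus strand), chr17:40417897-40418096 (minus strand), chr10:128126424-128126623 (minus strand) and chr4:120066849-120067048 (minus strand), each written 5′ to 3′ on the strand of its gene.
PLK1: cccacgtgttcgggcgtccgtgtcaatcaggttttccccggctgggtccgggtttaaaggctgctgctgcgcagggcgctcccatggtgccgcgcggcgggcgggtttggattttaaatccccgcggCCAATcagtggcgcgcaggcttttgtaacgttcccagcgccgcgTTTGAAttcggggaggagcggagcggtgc
CCNB2: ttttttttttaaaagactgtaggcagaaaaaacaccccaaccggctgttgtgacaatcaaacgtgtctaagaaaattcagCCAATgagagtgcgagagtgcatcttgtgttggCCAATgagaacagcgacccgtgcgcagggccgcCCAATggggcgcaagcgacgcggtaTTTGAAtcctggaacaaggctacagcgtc
HMMR: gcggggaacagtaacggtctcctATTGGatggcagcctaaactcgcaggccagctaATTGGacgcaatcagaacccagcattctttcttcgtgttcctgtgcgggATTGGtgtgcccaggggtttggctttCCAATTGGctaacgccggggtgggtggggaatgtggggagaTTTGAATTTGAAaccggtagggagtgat
TOP2A: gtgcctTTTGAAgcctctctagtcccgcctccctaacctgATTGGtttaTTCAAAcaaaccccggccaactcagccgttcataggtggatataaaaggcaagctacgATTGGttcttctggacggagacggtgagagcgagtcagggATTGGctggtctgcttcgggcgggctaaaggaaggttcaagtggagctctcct
MKI67: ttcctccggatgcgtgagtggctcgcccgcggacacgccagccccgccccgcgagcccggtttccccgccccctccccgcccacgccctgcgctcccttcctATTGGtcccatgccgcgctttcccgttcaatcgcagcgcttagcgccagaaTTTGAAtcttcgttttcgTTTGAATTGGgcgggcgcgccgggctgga
MAD2L1: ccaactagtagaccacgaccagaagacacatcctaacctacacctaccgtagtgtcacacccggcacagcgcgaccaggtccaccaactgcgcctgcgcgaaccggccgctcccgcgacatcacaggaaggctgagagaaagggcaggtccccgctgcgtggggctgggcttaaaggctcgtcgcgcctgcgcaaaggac

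In PLK1 and CCNB2 the CHR began 29 bases before the start, in HMMR a tandem pair began 28 and 22 bases before it, and in MKI67 a pair began 47 and 29 bases before it. In TOP2A the nearer match began 151 bases before the start. CCNB2 held 3 NF-Y boxes, 120, 87 and 54 bases before the start. Neither run of letters was found in the 200 bases printed for MAD2L1, though the NF-Y letters lay within the 250 bases searched.

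Total estimated counts ran from 37997896 to 39429453 per library, with each read pair counted a single time. The cells held OPC transcripts (OLIG2 at 41.3, 54.0 and 50.8 TPM (transcripts scaled to a fixed total per library, a level per length) on Matrigel, VN and VNP2, PTPRZ1 at 108, 151 and 178), but SOX10 and GPR17, which mark committed OPCs, were near 0 (at most 0.0778 and 0.0665 TPM in any library). VN replicate 1 stood apart from the other libraries: its median chi-square per gene against VN replicates 2 and 3 was 2.09 and 2.07, against 1.20 to 1.265 for the other replicate pairs and 0.455 for sampling noise alone. Results are therefore also given without it. The marker lists moved with the substrates too. The 12 neuron markers summed to 1074 to 1110 TPM on Matrigel, 1221 to 1252 on VN and 1288 to 1311 on VNP2, with STMN2 and DCX among those that rose. For the counts by test in all marker lists, 5.81% of all genes tested were higher and 9.41% lower on VN than on Matrigel. These shares were 7.45% and 9.13% on VNP2 against Matrigel, and 3.07% and 2.1% on VNP2 against VN. By test, 7 of the 12 neuron markers were higher and 1 lower (GAP43) on VN than on Matrigel, and 8 were higher on VNP2 than on Matrigel. Between VNP2 and VN, 4 were higher and 1 lower (MAP2) on VNP2. The 9 OPC markers summed to 215.5 to 217.6, 284 to 297.7 and 311.8 to 336.1 TPM on Matrigel, VN and VNP2, and 7 of the 7 that could be tested rose on VNP2 against Matrigel. The 12 mesenchymal markers, mostly matrix and contractile genes, summed to 1064 to 1096, 750 to 790.8 and 655 to 680 TPM. TAGLN (497, 121 and 106 TPM) carried the fall of this sum from Matrigel to VN. From VN to VNP2 COL1A1 fell most (159, 116 and 63.1 TPM). By test, 5 of the 12 were higher and 5 lower on VNP2 than on Matrigel, and LUM, DCN and COL1A2 were higher on both coatings. Neural progenitor markers summed to 3634 to 3708, 3118 to 3181 and 3410 to 3462 TPM, a sum set mainly by VIM (2530, 1950 and 2250 TPM), while 3 of the 8 tested were higher and 2 lower on VNP2 than on Matrigel. The 10 neural crest markers summed to 79.0 to 79.9, 63.3 to 67.1 and 77.8 to 78.2 TPM, with PAX3 and SOX10 at or near 0. The fall on VN was carried by ETS1 (log2 fold change −1.38 against Matrigel), while 5 of the 7 tested lay above 0. The 10 pluripotent cell markers summed to 95.4 to 100.7, 86.8 to 90.7 and 78.2 to 82.1 TPM, with NANOG at most 0.392. LIN28A (log2 fold change −0.56) carried their fall on VN, while 7 of the 9 tested lay above 0 and ESRG was higher by test. Against Matrigel, 1 of the 9 was higher and 4 lower by test on VNP2. Against VN, 0 were higher and 3 lower by test on VNP2. These were TDGF1, ESRG and POU5F1 (log2 −2.45, −1.97 and −1.56), all at low counts. The part of the marker lists in the changes of the mitotic genes was not tested.

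The mitotic genes were abundant. Together the 50 genes made up 0.605% and 0.5998% of all TPM in the Matrigel libraries, 0.648%, 0.673% and 0.657% in the VN libraries and 0.581%, 0.593% and 0.586% in the VNP2 libraries. The 3 groups did not overlap on this sum, with VN highest and VNP2 lowest. Per length, the highest member was CKS2 (mean 395 TPM over the 8 libraries), followed by UBE2C (341) and CKS1B (302), and the lowest was SGO1 (23.0). Relative to its Matrigel mean, the median member lay 0.066, 0.094 and 0.074 higher on the log2 scale in the 3 VN libraries. In the 3 VNP2 libraries it lay at −0.13, −0.077 and −0.13. In single libraries, 41, 38 and 37 of the 50 genes were above their Matrigel mean on VN and 4, 8 and 10 on VNP2, so the direction was shared by most members in each library. The values used from here on are normalized counts, scaled by TMM and corrected for transcript length, and they serve to compare 1 gene between libraries.

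**Figure D1:**
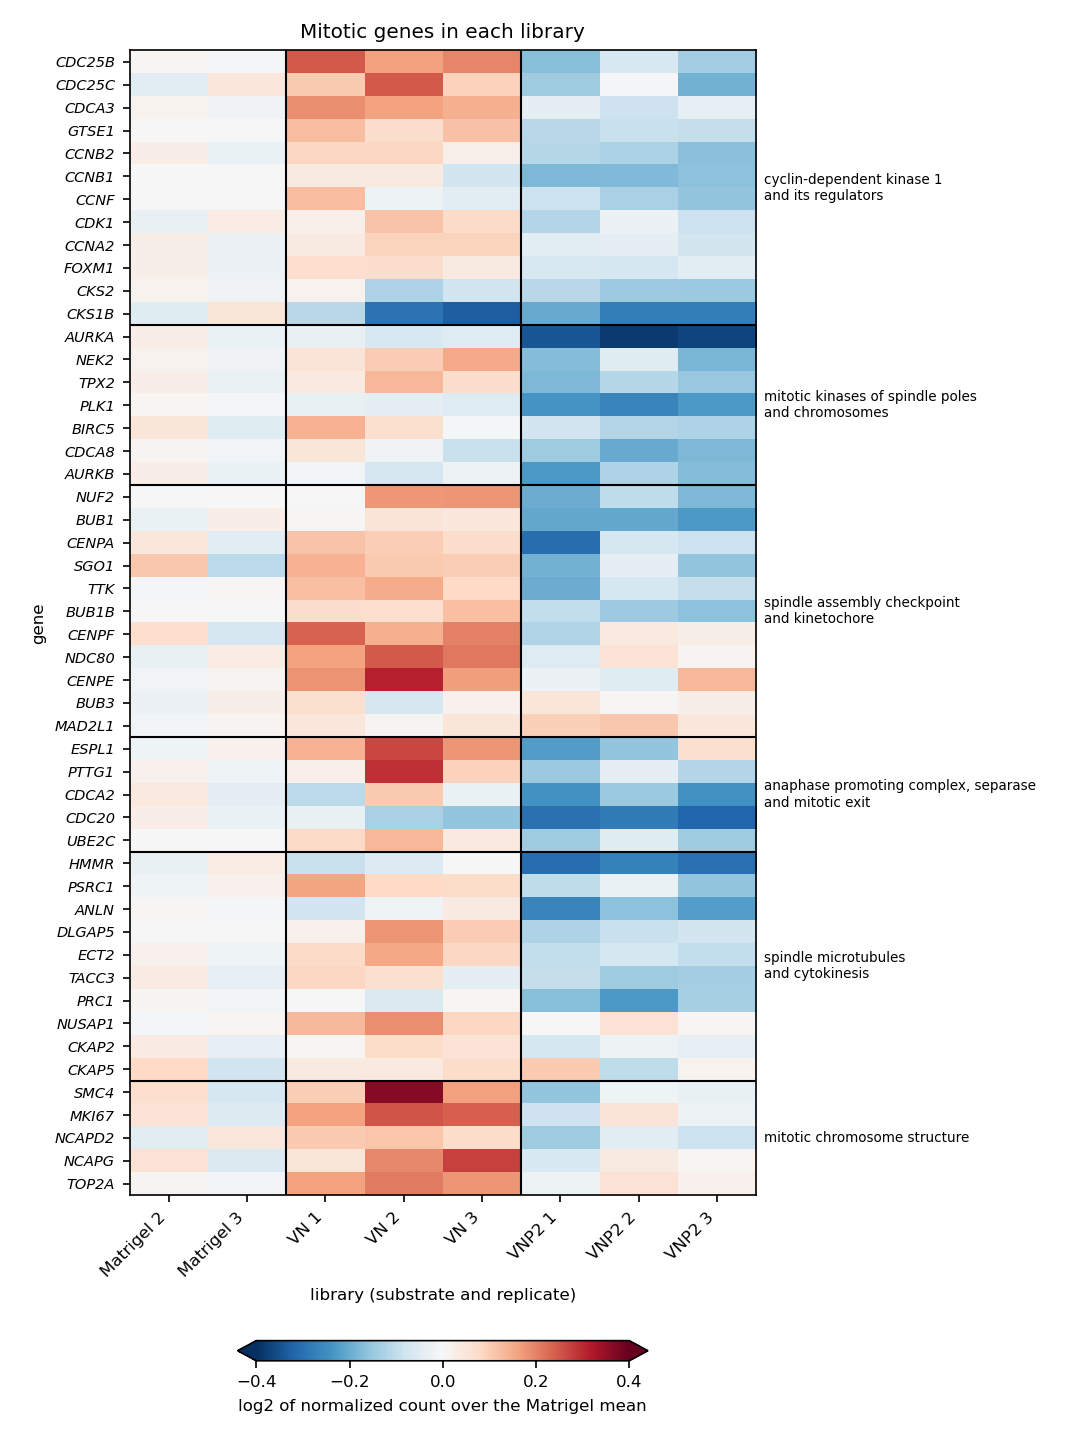
Normalized count of each of the 50 mitotic genes (rows, grouped by role and ordered within a role by the difference between VNP2 and VN) in each of the 8 libraries (columns), as log2 of the ratio to the mean of the 2 Matrigel libraries. Red is higher and blue is lower than Matrigel; the VNP2 columns are mostly blue and the VN columns mostly pale red, with CKS1B lower on both.

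Tests came from 1 edgeR quasi-likelihood fit of all 8 libraries with Benjamini-Hochberg adjustment over the 18201 genes, two-sided, and a gene is called changed at an adjusted p under 0.05. SE is the approximate standard error of a log2 fold change. VN and VNP2 were both compared with the same 2 Matrigel libraries, so those comparisons are not independent of each other. Across the 3 substrates 36 of the 50 genes were called, where 19.3% of all genes were.

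The clearest difference lay between the coatings made from vitronectin. Against VN, 31 of the 50 genes were lower on VNP2, and 0 were called higher (0 at an unadjusted p under 0.05, and 0 by DESeq2 and by limma). Of all genes tested 2.1% were called lower and 3.07% higher in this comparison, and of the 9840 genes whose normalized count averaged 500 or more, a level that every member reached, 2.67% were called lower. The median log2 fold change of the members was −0.20, against −0.0026 for all genes, and 48 of 50 values lay below 0. The libraries of the 2 groups did not overlap for 45 members, which were lower on VNP2, and for no member in the other direction, where 11.2% and 12.2% of all genes separated lower and higher. The changes were small, and the largest was −20.1% (CDC25B). Without VN replicate 1 the count was 35 and the median −0.20. The count was 16 without VN replicate 2, 13 without VNP2 replicate 1 and 15 without VNP2 replicate 3, and 11 members were called in every fit tried (CDC25B, AURKA, BUB1, HMMR, TTK, TPX2, BUB1B, PLK1, GTSE1, ECT2 and TOP2A).

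Against Matrigel, 14 members were lower on VNP2 and 0 were called higher (1 at an unadjusted p under 0.05, MAD2L1, and 0 by DESeq2 and by limma), where 9.13% of all genes were called lower and 7.45% higher, and 12.3% of the abundant genes lower. The median was −0.11 against 0.0030 for all genes. Separation without overlap was seen for 33 members lower and 1 higher, against 25.0% and 23.1% of all genes. The count was 5 without Matrigel replicate 2, 6 without Matrigel replicate 3 and 8 without VNP2 replicate 3. AURKA, CDC20, HMMR, PLK1 and BUB1 were called in every fit.

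On VN against Matrigel, 8 members were higher (CDC25B, CDCA3, CENPE, CENPF, NDC80, NUSAP1, TOP2A and MKI67) and CKS1B was lower. The background was 5.81% of all genes called higher and 9.41% lower, and 7.68% of the abundant genes higher. The median was 0.082, against 0.0083 for all genes. Of the 50 members, 26 separated higher and 4 lower, where 21.7% and 22.7% of all genes did. None of these 9 calls held in every fit. No member was called higher without Matrigel replicate 3, 3 were without Matrigel replicate 2 or VN replicate 2, and 4 were without length offsets, whereas 12 were without VN replicate 1.

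**Figure D2:**
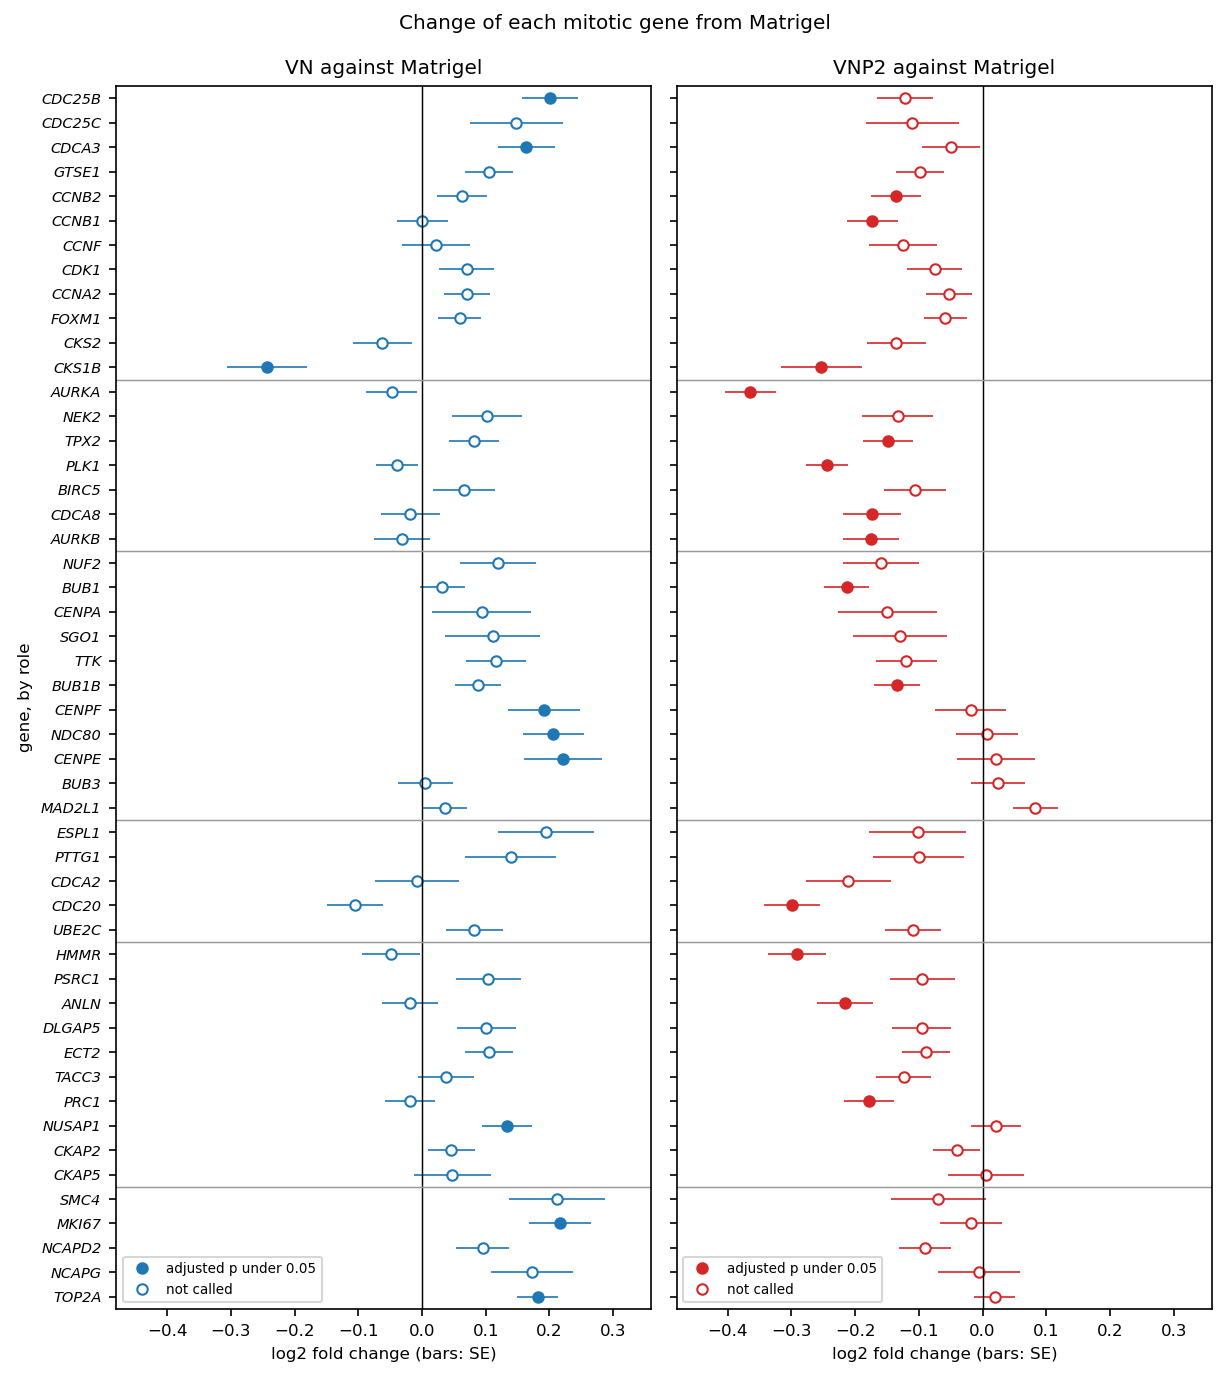
Log2 fold change of each of the 50 genes from Matrigel on VN (left) and on VNP2 (right), with bars of 1 SE; filled points were called at an adjusted p under 0.05. On VN 8 genes were called higher and CKS1B lower, and on VNP2 14 genes were called lower. Both panels use the same 2 Matrigel libraries.

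For the role counts that follow, 2.1% of all genes were called lower on VNP2 than on VN. On VNP2 against Matrigel 9.13% were lower, and 12.3% of the abundant genes. On VN against Matrigel 5.81% were higher and 9.41% lower. The roles hold few genes, so a count of 1 or 2 says little beside these shares. CDK1 and its regulators numbered 12. On VNP2, 6 were lower than on VN and 3 lower than on Matrigel, with medians of −0.16 and −0.12, and the fold changes of all 12 lay below 0 in both comparisons. CDC25B, the phosphatase that first activates CDK1 with cyclin B, had normalized counts of 3946 and 3903 (Matrigel), 4649, 4394 and 4493 (VN) and 3490, 3764 and 3565 (VNP2). Its 3 groups did not overlap, and VN was highest. It was higher on VN than on Matrigel (log2 0.20, SE 0.044, edgeR adjusted p = 0.0124) and lower on VNP2 than on VN (−20.1%, log2 −0.32, SE 0.039, adjusted p = 0.00093), while the difference between VNP2 and Matrigel was not called (log2 −0.12, adjusted p = 0.0903). The rise on VN was not called without Matrigel replicate 2 (0.21) or 3 (0.19) or without length offsets (0.15), and without length offsets VNP2 was called lower than Matrigel (−0.17, adjusted p = 0.0308). CDC25C, another phosphatase of CDK1, had 1098 and 1171 (Matrigel), 1219, 1343 and 1209 (VN) and 1028, 1130 and 995 (VNP2). All VN libraries lay above all VNP2 libraries, but only just past the limit (log2 −0.26, SE 0.065, adjusted p = 0.0498) and the call was lost without length offsets, with only the libraries of the pair, and without any 1 library except VN replicate 1 and VNP2 replicate 2 (log2 −0.28 to −0.21).

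CKS1B, a small CDK subunit that also serves the SCF-SKP2 ubiquitin ligase in removing p27, had 4244 and 4531 (Matrigel), 4057, 3573 and 3492 (VN) and 3811, 3618 and 3617 (VNP2). It was called lower on both coatings than on Matrigel, as no other member was in the fit of all libraries (log2 −0.24, SE 0.063, adjusted p = 0.0271 on VN, and log2 −0.25, SE 0.063, adjusted p = 0.0204 on VNP2). The VN and VNP2 libraries overlapped (log2 −0.0098, SE 0.057, adjusted p = 0.95). VN replicate 1 was the VN library nearest to Matrigel, and without it the change on VN was −0.31. The call on VN ended without either Matrigel library, VN replicate 2 or VN replicate 3 (−0.29 to −0.20) and with the GC and length trend removed (−0.20). The call on VNP2 ended without either Matrigel library, VNP2 replicate 2 or VNP2 replicate 3 (−0.29 to −0.20). Its paralog CKS2 had 3372 and 3308 (Matrigel), 3374, 3064 and 3160 (VN) and 3089, 3022 and 3013 (VNP2). VNP2 lay below Matrigel without overlap, but the change was not called (log2 −0.14, SE 0.047, adjusted p = 0.0781) unless VN replicate 1 or all VN libraries were left out (−0.14, adjusted p = 0.0233 and 0.0306). The B-type cyclins CCNB1 and CCNB2, which activate CDK1, were lower on VNP2 than on Matrigel (log2 −0.17, adjusted p = 0.0138, and log2 −0.14, adjusted p = 0.0400) and lower than on VN (log2 −0.17, adjusted p = 0.0201, and log2 −0.20, adjusted p = 0.00912). CDK1 itself had means of 5755, 6042 and 5464 on Matrigel, VN and VNP2 and was not called in any pair (adjusted p = 0.0611 between VNP2 and VN). CCNA2, the cyclin of S phase and G2, and FOXM1, a transcription factor of many of these genes, stood just outside the limit in the same pair (log2 −0.12 each, adjusted p = 0.0585 and 0.0543). Without VN replicate 1 all 3 were called (−0.17, −0.14 and −0.11). The falls of the cyclins against Matrigel ended without either Matrigel library (−0.17 for CCNB1, −0.16 and −0.10 for CCNB2), and that of CCNB2 also without VN replicate 2 or any 1 VNP2 library (−0.15 to −0.12), without length offsets (−0.13), without the filter (−0.14) and with the GC and length trend removed (−0.11). Against VN, CCNB1 was not called without VN replicate 2 or any 1 VNP2 library (−0.18 to −0.15), nor CCNB2 without VNP2 replicate 3 (−0.18).

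Kinases of the spindle poles and chromosomes, with their partners, numbered 7. On VNP2, 5 were lower than on Matrigel and 5 lower than on VN, with medians of −0.17 and −0.20. In both comparisons the libraries of all 7 separated, where 25.0% and 11.2% of all genes separated lower. On VN 0 of the 7 were called against Matrigel in either direction (0 at an unadjusted p under 0.05, and 0 by DESeq2 and by limma). AURKA, the Aurora kinase of centrosomes and spindle poles, had 3147 and 3035 (Matrigel), 3025, 2965 and 2983 (VN) and 2440, 2368 and 2396 (VNP2). The Matrigel and VN values were close together, and every VNP2 value lay well below them. The change on VNP2 was −22.3% against Matrigel (log2 −0.36, SE 0.040, adjusted p = 0.000125) and −19.7% against VN (log2 −0.32, SE 0.036, adjusted p = 0.000677). PLK1, the Polo-like kinase that acts from mitotic entry to cytokinesis, had 6426 and 6348 (Matrigel), 6253, 6236 and 6158 (VN) and 5424, 5316 and 5443 (VNP2). The same arrangement was seen, with changes of −15.5% (log2 −0.24, SE 0.033, adjusted p = 0.000549) and −13.2% (log2 −0.20, SE 0.030, adjusted p = 0.00282). AURKB, the kinase of the chromosomal passenger complex that corrects faulty attachments, had 3725 and 3583 (Matrigel), 3628, 3490 and 3603 (VN) and 3113, 3351 and 3243 (VNP2). It was lower on VNP2 than on Matrigel (log2 −0.18, SE 0.044, adjusted p = 0.0207) and stood at log2 −0.14 against VN (adjusted p = 0.0698), where it was called by DESeq2 (adjusted p = 0.0381), with the stricter filter (0.0496) and with the GC and length trend removed (0.0325). The call against Matrigel ended without either Matrigel library, VNP2 replicate 1 or VNP2 replicate 3 (−0.20 to −0.14) and with the GC and length trend removed (−0.14). TPX2, which activates AURKA on spindle microtubules, was lower on VNP2 in both comparisons (log2 −0.15, adjusted p = 0.0248 against Matrigel, and log2 −0.23, adjusted p = 0.00362 against VN), though the first was not called without either Matrigel library or VNP2 replicate 1 or 3 (−0.17 to −0.12).

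**Figure D3:**
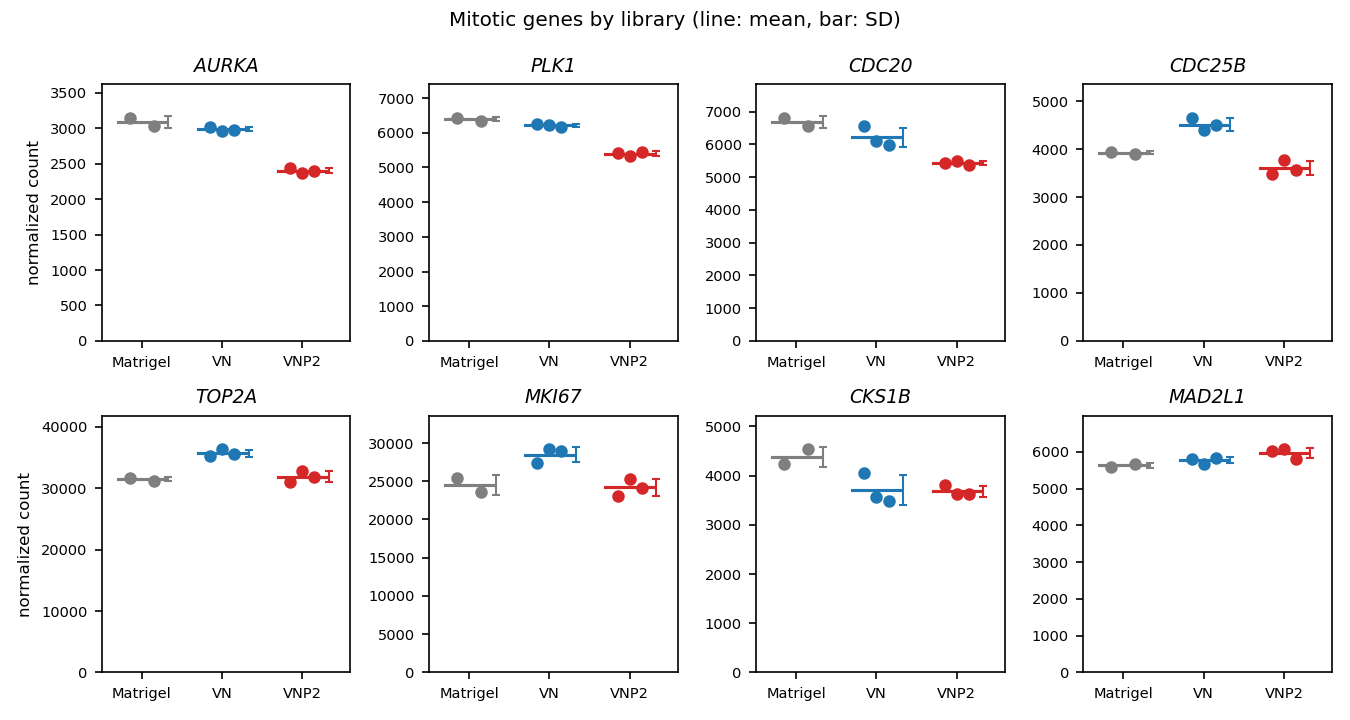
Normalized count in each library for 8 members (points), by substrate, with the mean (line) and SD (bar) of 2 Matrigel, 3 VN and 3 VNP2 libraries; all axes start at 0. AURKA, PLK1 and CDC20 were lowest on VNP2, CDC25B, TOP2A and MKI67 were highest on VN, CKS1B was highest on Matrigel, and MAD2L1 differed little.

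Checkpoint and kinetochore genes numbered 11. On VNP2, 6 were lower than on VN and 2 lower than on Matrigel, where 12.3% of the abundant genes were lower than on Matrigel. On VN 3 were higher than on Matrigel. BUB1 and BUB1B, kinase and pseudokinase of the spindle assembly checkpoint, were the pair lower on VNP2 than on Matrigel (log2 −0.21, adjusted p = 0.00235, and log2 −0.13, adjusted p = 0.0281). The call of BUB1B ended without either Matrigel library or VNP2 replicate 2 or 3 (−0.14 to −0.12) and without length offsets (−0.13). NUF2 and NDC80 belong to the same complex, which holds microtubules at the kinetochore. NUF2 had 2327 and 2329 (Matrigel), 2331, 2623 and 2629 (VN) and 2027, 2169 and 2056 (VNP2). VN replicate 1 was level with Matrigel, and every VNP2 library lay lower (log2 −0.28, SE 0.053, adjusted p = 0.0136 against VN). Without VN replicate 1, NUF2 was also called higher on VN (0.17, adjusted p = 0.0249) and lower on VNP2 (−0.16, adjusted p = 0.0258) than on Matrigel. NDC80 had 2442 and 2540 (Matrigel), 2783, 2953 and 2885 (VN) and 2406, 2593 and 2511 (VNP2). Here Matrigel and VNP2 overlapped and VN stood above both (log2 0.21, SE 0.048, adjusted p = 0.0172 against Matrigel, and log2 −0.20, SE 0.043, adjusted p = 0.0244 for VNP2 against VN). CENPF, a large kinetochore protein, had 19705 and 17930 (Matrigel), 22142, 20723 and 21600 (VN) and 17296, 19321 and 19101 (VNP2). VN was again above both others (log2 0.19, SE 0.056, adjusted p = 0.0441 against Matrigel, and log2 −0.21, SE 0.050, adjusted p = 0.0381 for VNP2 against VN). CENPE, a kinetochore motor protein that brings chromosomes to the spindle equator, had 4045 and 4101 (Matrigel), 4613, 5049 and 4574 (VN) and 4010, 3934 and 4466 (VNP2). It was higher on VN than on Matrigel (log2 0.22, SE 0.061, adjusted p = 0.0354), but the change was 0.15 without length offsets (adjusted p = 0.269), 0.096 after removal of a GC and length trend (adjusted p = 0.338), 0.17 without VN replicate 2 (adjusted p = 0.0987), and 0.22 and 0.23 without Matrigel replicates 2 and 3, and it was not called in any of these. Between VNP2 and VN, CENPE was not called (−0.20), but it was by DESeq2, without VN replicate 1 and without VNP2 replicate 3 (−0.20, −0.22 and −0.25). The calls of NUF2 and NDC80 between VNP2 and VN ended without VN replicate 2 or 3 or VNP2 replicate 1 or 3 (−0.27 to −0.25 and −0.20 to −0.17), and that of NDC80 on VN against Matrigel ended without either Matrigel library or VN replicate 2 (0.18 to 0.23). The call of CENPF against Matrigel ended without any 1 of Matrigel replicate 3, the VN libraries, VNP2 replicate 2 or VNP2 replicate 3 (0.12 to 0.22), its call between VNP2 and VN ended without any 1 of their 6 libraries (−0.24 to −0.16), and both ended with the GC and length trend removed.

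MAD2L1, the checkpoint protein that holds back the anaphase promoting complex, had its highest mean on VNP2, as BUB3 did. It had 5586 and 5678 (Matrigel), 5810, 5674 and 5830 (VN) and 6012, 6065 and 5817 (VNP2). The VNP2 libraries lay above the Matrigel libraries, though the change was not called (log2 0.083, SE 0.036, adjusted p = 0.153), and they overlapped with VN (log2 0.048, SE 0.032, adjusted p = 0.454). Most of its TPM, 80.0% to 81.1% of the group means, was assigned to a transcript annotated as nonsense-mediated decay, MAD2L1-202. BUB3, a partner of BUB1 that is also expressed outside mitosis, had means of 6485, 6510 and 6595 on Matrigel, VN and VNP2 and was not called in any pair (lowest adjusted p = 0.771).

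Of the 5 genes of the anaphase promoting complex and mitotic exit, 3 were lower on VNP2 than on VN and 1 lower than on Matrigel, and 0 were called on VN against Matrigel (1 higher and 1 lower at an unadjusted p under 0.05, and 0 by DESeq2 and by limma). CDC20, the activator that turns the complex on at anaphase, had 6811 and 6553 (Matrigel), 6550, 6105 and 5984 (VN) and 5438, 5500 and 5359 (VNP2). The groups did not overlap, though the lowest Matrigel library (6553) and the highest VN library (6550) were nearly level. VNP2 was below Matrigel (−18.7%, log2 −0.30, SE 0.044, adjusted p = 0.000989) and below VN (log2 −0.19, SE 0.040, adjusted p = 0.0188). The step from Matrigel to VN was not called (log2 −0.10, SE 0.044, adjusted p = 0.14), but it was without VN replicate 1 (−0.15, adjusted p = 0.0157). The call against VN ended without any 1 VNP2 library (−0.20 to −0.18) and without length offsets (−0.17). UBE2C, the ubiquitin-conjugating enzyme of the complex, had 4120 and 4122 (Matrigel), 4343, 4514 and 4233 (VN) and 3738, 3988 and 3737 (VNP2). It was lower on VNP2 than on VN (log2 −0.19, SE 0.040, adjusted p = 0.0199), but not without VN replicate 2, VNP2 replicate 1 or VNP2 replicate 3 (−0.18 to −0.17). With the GC and length trend removed it was called higher on VN than on Matrigel (0.16, adjusted p = 0.0326). ESPL1, the separase that cuts cohesin, had 3172 and 3243 (Matrigel), 3536, 3858 and 3625 (VN) and 2746, 2874 and 3354 (VNP2). VNP2 replicate 3 lay apart from the other VNP2 libraries and above Matrigel, and VN stayed above all of them (log2 −0.30, SE 0.068, adjusted p = 0.0308 for VNP2 against VN). That call was lost without length offsets (−0.17), with only the libraries of the pair (−0.30), and without any 1 library except VN replicate 1 and VNP2 replicate 3 (−0.30 to −0.24). On VN against Matrigel ESPL1 was not called (0.20), but it was with only the libraries of the pair or without VNP2 replicate 3 (0.19 each) and without the filter (0.19).

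Spindle and cytokinesis genes numbered 10, of which 7 were lower on VNP2 than on VN, 3 lower than on Matrigel, and 1 higher on VN than on Matrigel. HMMR, which helps to focus spindle poles, had 2412 and 2518 (Matrigel), 2314, 2372 and 2460 (VN) and 1995, 2043 and 2005 (VNP2). Matrigel and VN overlapped, and the VNP2 libraries lay together below them (log2 −0.29, SE 0.046, adjusted p = 0.00153 against Matrigel, and log2 −0.24, SE 0.041, adjusted p = 0.0068 against VN). ANLN, the scaffold of the cytokinetic ring, counted 5622 and 5581 (Matrigel), 5312, 5533 and 5748 (VN) and 4663, 4995 and 4811 (VNP2). It showed the same arrangement (log2 −0.22, SE 0.044, adjusted p = 0.00722 against Matrigel, and log2 −0.20, SE 0.040, adjusted p = 0.0172 against VN). The first call ended without Matrigel replicate 2 (−0.21) and the second without VN replicate 2 or 3 or VNP2 replicate 1 or 3 (−0.20 to −0.17). PRC1, which bundles the central spindle, was also lower on VNP2 in both comparisons (log2 −0.18, adjusted p = 0.011, and log2 −0.16, adjusted p = 0.0273), but the first call ended without either Matrigel library (−0.19 and −0.16) and the second without either of them, VN replicate 3 or VNP2 replicate 1 or 2 (−0.16 to −0.13). NUSAP1, a microtubule and chromatin binding protein and the most abundant of this role per length, had 8878 and 8958 (Matrigel), 9753, 10153 and 9436 (VN) and 8918, 9275 and 8949 (VNP2). It was higher on VN than on Matrigel (log2 0.13, SE 0.039, adjusted p = 0.0439), with log2 −0.11 for VNP2 against VN (adjusted p = 0.103). This call ended without either Matrigel library, VN replicate 2 or any 1 VNP2 library (0.11 to 0.14), without the filter, without length offsets and with only the libraries of the pair. DESeq2 called NUSAP1 lower on VNP2 than on VN (−0.11, adjusted p = 0.0493), as did the fit without length offsets (−0.23, adjusted p = 0.0242). CKAP5, a microtubule polymerase that is used throughout the cell cycle, had means of 18487, 19107 and 18553 and its libraries overlapped in every pair.

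Genes of chromosome structure numbered 5, of which 4 were lower on VNP2 than on VN and 2 were higher on VN than on Matrigel, while 0 were called on VNP2 against Matrigel (0 at an unadjusted p under 0.05, and 0 by DESeq2 and by limma). TOP2A, the topoisomerase that untangles sister chromatids, had 31700 and 31242 (Matrigel), 35212, 36324 and 35554 (VN) and 31046, 32738 and 31872 (VNP2). VN stood above both other groups, which overlapped (log2 0.18, SE 0.032, adjusted p = 0.00419 against Matrigel, and log2 −0.16, SE 0.029, adjusted p = 0.00872 for VNP2 against VN). MKI67, the proliferation antigen that coats mitotic chromosomes, had 25440 and 23563 (Matrigel), 27379, 29162 and 28898 (VN) and 23104, 25357 and 24138 (VNP2). It followed TOP2A (log2 0.22, SE 0.049, adjusted p = 0.0138, and log2 −0.24, SE 0.043, adjusted p = 0.011). Without Matrigel replicate 3 neither rise on VN was called (0.17 for TOP2A and 0.16 for MKI67), and without VNP2 replicate 1 or 3 the call of MKI67 against VN was lost (−0.20 and −0.23). SMC4, a condensin subunit, had 16302 and 14837 (Matrigel), 16663, 20013 and 17418 (VN) and 13931, 15353 and 15227 (VNP2). VN replicate 2 was far above the others, and only the difference between VNP2 and VN was called (log2 −0.28, SE 0.067, adjusted p = 0.0389), which was −0.20 and not called without that library. Without VN replicate 1 and by DESeq2, SMC4 was also called higher on VN than on Matrigel (0.27, adjusted p = 0.0285, and 0.21, adjusted p = 0.0206). The difference between VNP2 and VN was also not called without VN replicate 3 or any 1 VNP2 library (−0.31 to −0.24).

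The 50 genes fell into different combinations of calls in the fit of all 8 libraries, and other settings change many of these. Besides those given above, BIRC5, TACC3, PSRC1, DLGAP5, NEK2 and NCAPD2 between VNP2 and VN lost their calls when some single libraries were left out. BIRC5 (−0.205 to −0.134) and TACC3 (−0.195 to −0.139) lost them in most such fits. The same loss was seen for CDCA3 on VN and CDCA8 on VNP2 against Matrigel. CDCA8 was called lower on VNP2 than on VN in 4 of 9 other settings. Lower on VNP2 against both other substrates were 11 genes (CCNB1, CCNB2, PLK1, AURKA, TPX2, BUB1, BUB1B, CDC20, HMMR, PRC1 and ANLN). Higher on VN than on Matrigel and lower on VNP2 than on VN were 6 (CDC25B, CDCA3, CENPF, NDC80, TOP2A and MKI67). Called in the pair of VNP2 and VN alone were 14 genes: CDC25C, GTSE1, NEK2, BIRC5, TTK, NUF2, UBE2C, ESPL1, DLGAP5, TACC3, PSRC1, ECT2, SMC4 and NCAPD2. AURKB and CDCA8, both of the chromosomal passenger complex, were called in the pair of VNP2 and Matrigel alone, CENPE and NUSAP1 in the pair of VN and Matrigel alone, and 14 genes were called in no pair. By mean normalized count, the order VN, Matrigel, VNP2 held for 32 genes, Matrigel, VN, VNP2 for 11, VN, VNP2, Matrigel for 5 and VNP2, VN, Matrigel for 2 (BUB3 and MAD2L1). A gene called in 1 pair and not in another is not shown to differ between those pairs.

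Among the 24 genes with the CHR letters in the promoter window 16 were lower on VNP2 than on VN, with a median of −0.20 (−0.195), and among the 18 without it 10 were, with a median of −0.20 (−0.199). Across the 50 genes, the change from Matrigel to VN went with average transcript length (Spearman rho 0.33, against 0.215 across the 9840 abundant genes), and the change between VNP2 and VN showed rho −0.028 with GC content, against 0.276 across those genes. These are descriptions across genes that share libraries. Their part in the differences was not tested beyond the fit with the GC and length trend removed, in which 35 members were lower on VNP2 than on VN and 15 lower than on Matrigel.

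**Figure D4:**
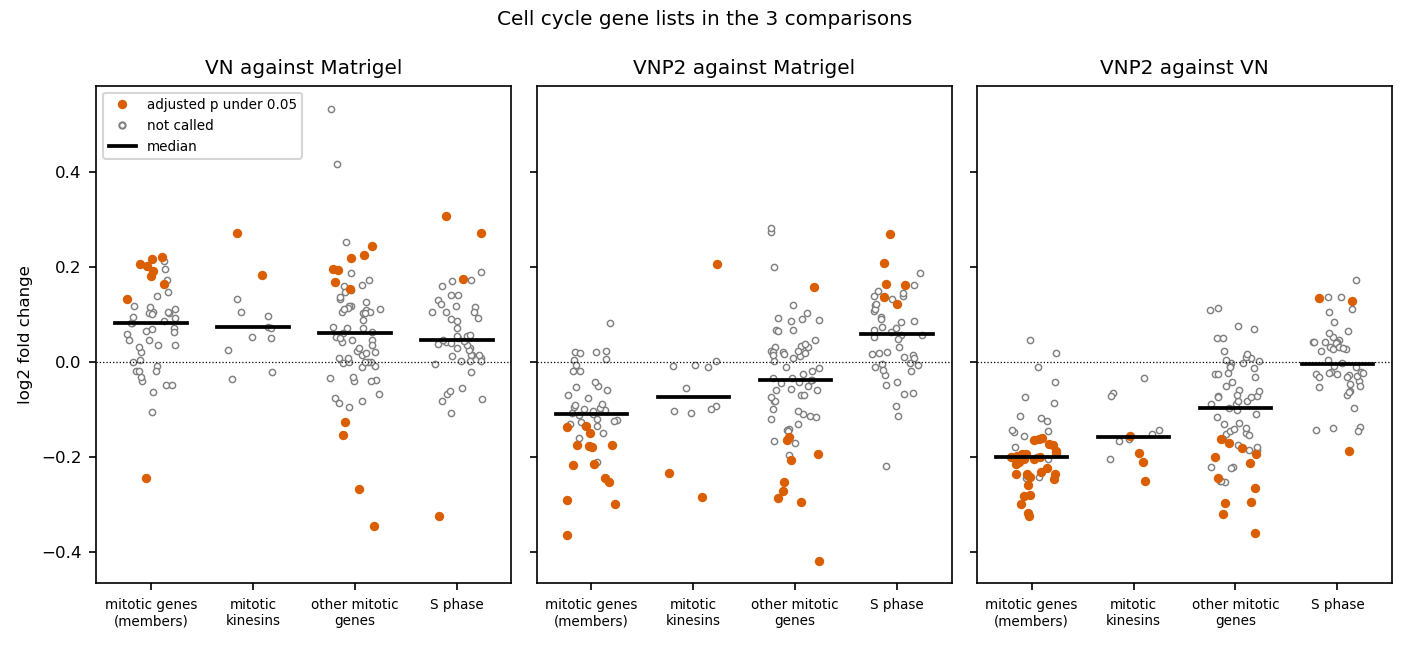
Log2 fold changes of the 50 mitotic genes, 12 mitotic kinesins, 69 other mitotic genes and 50 S phase genes in the 3 comparisons; each point is a gene, orange points were called at an adjusted p under 0.05, and black lines are medians. For VNP2 against Matrigel the median of the mitotic genes is −0.11 and that of the S phase genes 0.060.

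Other genes of the cell cycle were read beside the members. For the counts of these lists, 2.1% of all genes tested were called lower and 3.07% higher on VNP2 than on VN. On VNP2 against Matrigel 9.13% were lower and 7.45% higher, with 12.3% of the abundant genes lower. On VN against Matrigel 5.81% were higher and 9.41% lower. Of the 12 mitotic kinesins, 4 were lower on VNP2 than on VN (median −0.16), and 2 were lower and 1 higher on VNP2 than on Matrigel (median −0.073). KIF20A, a motor of cytokinesis, had 4786 and 4730 (Matrigel), 4723, 4692 and 4521 (VN) and 3832, 4043 and 3846 (VNP2), the same arrangement as AURKA (log2 −0.28, SE 0.040, adjusted p = 0.000713 against Matrigel). KIF23, another motor of cytokinesis, changed likewise (log2 −0.23, SE 0.045, adjusted p = 0.00515). KIF15, a spindle motor, was instead higher on both VN (log2 0.27, SE 0.055, adjusted p = 0.00877) and VNP2 (log2 0.21, SE 0.055, adjusted p = 0.0285) than on Matrigel. On VN 2 kinesins of this list were higher (KIF15 and KIF11) and none lower. Without Matrigel replicate 3 neither KIF23 (−0.17) nor KIF15 on either coating (0.22 and 0.15) was called, KIF15 on VNP2 was not called without any 1 VNP2 library (0.19 to 0.22), and KIF11 was not called without either Matrigel library or VN replicate 2 or 3 (0.15 to 0.22). Of 69 other mitotic genes, 12 were lower on VNP2 than on VN (median −0.097), 9 lower and 1 higher on VNP2 than on Matrigel (median −0.037), and 7 higher and 4 lower on VN than on Matrigel (median 0.062). The 9 lower on VNP2 than on Matrigel stood near the share of abundant genes called lower. The largest fall against Matrigel was that of CEP55, which recruits the machinery of abscission, from 2117 and 2154 on Matrigel to 1614, 1619 and 1563 on VNP2 (log2 −0.42, SE 0.046, adjusted p = 0.000128), with 1875, 1923 and 1964 on VN (log2 −0.15, adjusted p = 0.0465 against Matrigel, a call lost without any 1 library, at −0.17 to −0.14). WEE1, the kinase that keeps CDK1 inactive, was lower on both coatings (log2 −0.34, SE 0.050, adjusted p = 0.00128 on VN, and log2 −0.29, SE 0.050, adjusted p = 0.00262 on VNP2), as CKS1B was. TROAP, a spindle protein, had 1735 and 1720 (Matrigel), 1845, 1822 and 1783 (VN) and 1396, 1461 and 1395 (VNP2), which was lower than either other group (log2 −0.36, SE 0.042, adjusted p = 0.0008 against VN, and log2 −0.29, SE 0.047, adjusted p = 0.00213 against Matrigel). CENPI, a centromere protein, was arranged likewise (log2 −0.32, SE 0.053, adjusted p = 0.006 against VN). CENPW, another centromere protein, was lower on VN than on Matrigel (log2 −0.27, SE 0.078, adjusted p = 0.0440), but not called by DESeq2 or without any 1 library except VN replicate 1 (−0.28 to −0.21).

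Among 50 S phase genes, which serve the copying of DNA, 6 were higher (where 7.45% of all genes were) and 0 lower on VNP2 than on Matrigel, with a median of 0.060 where that of the mitotic genes was −0.11. UNG, which removes uracil from DNA, had 3052 and 2793 (Matrigel), 3121, 3275 and 3205 (VN) and 3509, 3586 and 3468 (VNP2) (log2 0.27, SE 0.047, adjusted p = 0.00307 for VNP2 against Matrigel). POLA1, the polymerase that starts new strands, was higher on VNP2 (log2 0.21, SE 0.038, adjusted p = 0.0039) and on VN (log2 0.18, SE 0.038, adjusted p = 0.0122) than on Matrigel. Between VNP2 and VN, 2 S phase genes were higher, MCM6 and MCM3 of the replicative helicase, and HELLS was lower, with a median of −0.0044. On VN, 3 were higher and UHRF1 was lower than on Matrigel (log2 −0.32, SE 0.089, adjusted p = 0.0337, but −0.031 and not called by limma on the deposited normalized counts). E2F8, a repressor of the E2F family, was the highest of the 3 (log2 0.31, SE 0.067, adjusted p = 0.0121), at 0.14 and not called without length offsets and at 0.25 and not called without Matrigel replicate 3. By summed TPM the S phase genes had 4255 to 4289 on Matrigel, 4595 to 4717 on VN and 4638 to 4699 on VNP2, so VN and VNP2 overlapped. Single libraries decided several of these calls. POLA1 was not called without Matrigel replicate 3 (0.19 on VNP2 and 0.15 on VN), UHRF1 without Matrigel replicate 2 or VN replicate 2 or 3 (−0.33 to −0.22), HELLS without VN replicate 2 or VNP2 replicate 1 (−0.17 and −0.16), and MCM3 and MCM6 without any 1 library except VN replicate 1 (0.12 to 0.15). The difference between the lists was not itself tested.

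Inhibitors of the cyclin-dependent kinases and pocket proteins numbered 15. CDKN1A (p21), which halts the cycle after damage or stress, fell on both coatings, from 5706 and 5676 on Matrigel to 3161, 3118 and 3143 on VN and 3052, 3081 and 2861 on VNP2 (log2 −0.86, SE 0.041, adjusted p = 5.88e-07, and log2 −0.92, SE 0.041, adjusted p = 2.17e-07). This was a far larger change than that of any of the 50 mitotic genes, and CDKN1A was not called between VNP2 and VN (log2 −0.067, SE 0.038, adjusted p = 0.367). CDKN2B (p15), at low counts, fell from 144.5 and 148.8 to 68.3, 83.5 and 83.2 on VN and 62.3, 43.5 and 43.1 on VNP2 (log2 −0.91, SE 0.18, adjusted p = 0.00846, and log2 −1.58, SE 0.19, adjusted p = 0.000254). CDKN2A had 38.6 and 24.9 (Matrigel), 19.7, 41.5 and 41.2 (VN) and 9.24, 8.69 and 10.1 (VNP2) (log2 −1.73, SE 0.41, adjusted p = 0.0155 for VNP2 against Matrigel). RBL2, a pocket protein of resting cells, was lower on VNP2 than on VN (log2 −0.21, SE 0.046, adjusted p = 0.0265), but not called without VN replicate 2 or 3 or VNP2 replicate 1 or 3 (−0.22 to −0.20). In all, 3 of the 15 were higher and 2 lower on VN than on Matrigel, 1 higher and 3 lower on VNP2 than on Matrigel, and 2 lower on VNP2 than on VN. CDKN1C (p57) was higher on both coatings (log2 0.28, SE 0.047, adjusted p = 0.00316 on VN, and log2 0.26, SE 0.047, adjusted p = 0.00361 on VNP2). CDKN1B (p27) was higher on VN than on Matrigel (log2 0.20, SE 0.057, adjusted p = 0.0387), as RBL2 was. CDKN2A on VNP2 was not called without Matrigel replicate 2 (−1.40), and CDKN2B on VN was not called without either Matrigel library (−0.92 and −0.89).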

How the data were processed

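Polyadenylated RNA of H9-derived OPCs on 3 substrates was sequenced from stranded paired-end libraries, 8 of which were used (Matrigel 2, VN 3, VNP2 3). The authors trimmed adapters with Trim Galore and ran Salmon on the GENCODE v32 transcripts (GRCh38.p13), with versions not given in the sources used here. The deposited estimated counts (expected counts) are Salmon's values per transcript, not normalized and not whole, and the deposited TPM values are its abundances per transcript. The authors also deposited normalized counts per gene, a signal made with tximport and DESeq2 (1.27.12 per the submitters' processing notes), used here for 1 alternative and a check: 49 of the 50 members had a mean within 5% of theirs, and TACC3 had 0.944 of it.

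Transcripts were assigned to genes by identifier with GENCODE v29 (205225 of 226608 transcripts matched), so transcripts that are only in the later release were left out. Estimated counts were summed per gene, rounded, filtered with filterByExpr (minimum count 10, minimum total 15) and fitted in edgeR 4.0.16 (R 4.3.3) with TMM normalization and offsets for average transcript length, group as the only term, and a common dispersion of 0.0037. Each comparison used a two-sided quasi-likelihood F-test with Benjamini-Hochberg adjustment over all 18201 genes. With 37997896 to 39429453 estimated counts per library the members had mean normalized counts of 789 or more, and replicates differed by more than counting noise (median chi-square 1.20 to 2.09 where noise alone gives 0.455). TPM values are not corrected for differences in RNA composition. Pseudogene copies of the members held at most 0.412% of the member's counts (CDC20P1).

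The members and all gene lists were chosen with earlier results of these data known, so lists are described by counts and medians and not tested. Values per library are given for the 6 members with the largest change among called, non-overlapping ones in each comparison and for the member with the highest TPM in each role. From each other cell cycle list, the 2 called genes with the largest change in each comparison are named. Other genes named with values (CEP55 on VN, MCM3, CDKN1B, CDKN1C and, among the members, CCNB1, CCNB2, CDK1, CCNA2, FOXM1, TPX2, BUB1, BUB1B, BUB3, PRC1 and CKAP5) were chosen after their values were seen.

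The settings varied were the tool (DESeq2 1.42.0; limma 3.58.1 on log2 of the deposited normalized counts plus 1), the scaling (RLE in place of TMM, offsets for length dropped), the filter (none, or 50 counts or more per library), the fit (number as a block, or 2 groups alone) and the libraries, each omitted once. Removal of a GC and length trend was added after the data were seen. The scripts were tested on simulated data. Promoter sequences came from RefSeq (GRCh38.p14).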

Additional observations from a re-analysis of the deposited data

How the results depend on the processing

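With 2 Matrigel libraries, single libraries weigh heavily. Leaving out 1 library at a time gave 22 to 41 members called across the substrates, 0 to 12 higher and 0 to 2 lower on VN against Matrigel (median 0.056 to 0.098), 5 to 18 lower on VNP2 against Matrigel (median −0.13 to −0.092), and 13 to 35 lower on VNP2 against VN (median −0.21 to −0.18). The counts of members called higher on VNP2 stayed 0 in every fit run. Without length offsets 4 members were higher on VN against Matrigel and the median was 0.065. CKS1B was no longer lower on VN with the GC and length trend removed or with only the pair's libraries, which left 0 members lower. The members called in each comparison kept their sign in every fit, and 0 of the 9 called on VN were called in every fit.

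The replicate numbers shared by the groups did not pair the samples: the correlations of same-numbered deviations ran from −0.13 to 0.16. With number as a replicate block 43 members were called across the substrates, 11 were higher and 1 lower on VN, 19 lower on VNP2 against Matrigel and 36 lower on VNP2 against VN. Without the block these counts were 36, 8, 1, 14 and 31. DESeq2 called 42, 9, 1, 15 and 42 in the same order.

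Changes of sign in members occurred only in values not called. Among the 21 members given by library, against Matrigel on VN, ANLN was 0.00766 with the block, AURKB 0.037, MAD2L1 −0.0095 and PLK1 0.014 with the GC and length trend removed, and HMMR 0.058 without length offsets. On VNP2 against Matrigel, without length offsets CENPE was −0.23, NDC80 −0.039, NUSAP1 −0.051 and TOP2A −0.0091; with the trend removed CENPE was −0.062 and TOP2A −0.018, and with the block MKI67 was 0.013. On VNP2 against VN without length offsets CKS1B was 0.012 and MAD2L1 −0.00769. Leaving out 1 library gave ranges across 0 for ANLN (−0.047 to 0.0099) and AURKB (−0.061 to 0.00032) on VN against Matrigel, for CENPE, CENPF, MKI67, NDC80 and SMC4 on VNP2 against Matrigel (−0.034 to 0.058, −0.085 to 0.057, −0.072 to 0.045, −0.018 to 0.036 and −0.14 to 0.0062) and for CKS1B on VNP2 against VN (−0.049 to 0.060). Ranges of other members also crossed 0: CDCA8, CDCA2, PRC1, CCNB1, BUB3, CCNF and CKAP5 on VN against Matrigel, NCAPG and CKAP5 on VNP2 against Matrigel, and CKAP5 and BUB3 on VNP2 against VN. The causes were not tested.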
